A study of Rattus norvegicus with 4 samples.

Results

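Mag, Mbp, Cnp, Mal and Sox10 were taken as myelin genes that oligodendrocytes and Schwann cells both use, and their 5 rows were found by symbol among the 32623 genes of the count matrix. The spatial data came from trigeminal nerve tissue of wild type adult male Sprague-Dawley rats on 4 Visium capture areas, of which TN1, TN2 and TN3 each held the trigeminal root, ganglion and proximal branches of 1 animal with a unilateral mechanical compression of the root (trigeminal neuralgia, TN). The remaining area, HC, held the healthy side of 2 animals, which by the series description are among the 3 TN animals and by the methods are sham-operated. The barcodes of HC do not tell these 2 animals apart, so HC was 1 sample with no spread of its own. Disease and capture area therefore cannot be told apart.

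Myelin is the wrapped glial membrane that insulates axons. Oligodendrocytes make it in the brain and brainstem and Schwann cells make it in peripheral nerve, and the trigeminal root holds the border between both territories. Some myelin proteins belong to one lineage, such as Mobp and Mog in oligodendrocytes or Prx and Dhh in Schwann cells. Others serve both: Mag is an adhesion protein of the membrane that faces the axon, Mbp holds the cytoplasmic faces of the membrane together, Cnp is a phosphodiesterase of non-compact myelin, Mal is a proteolipid that takes part in sorting myelin proteins, and Sox10 is the transcription factor that both lineages need to myelinate.

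The areas held 1587, 1256, 1917 and 2013 spots for TN1, TN2, TN3 and HC, with medians of 9487, 30808, 14480 and 14616 unique molecular identifiers (UMIs) per spot. Levels are given as CPM, the UMIs of a gene scaled to 1e+06 UMIs of a spot or of the summed spots. Spots with at least 1000 UMIs were ranked over all areas by their level of a pair of anchor genes. The upper 15% for Mobp plus Mog, which started at 1145 CPM, were called central-rich, and the upper 15% for Prx plus Egr2, which started at 1450 CPM, were called peripheral-rich. No spot was in both. The central-rich spots numbered 280, 121, 225 and 372 and the peripheral-rich spots 378, 53, 385 and 186, in the same order of areas. A spot covers several cells, so that fewer cells of a type and less RNA per cell cannot be told apart. The same capture barcodes are printed on each area (2337 of 3573 barcode sequences occurred in more than 1 area), so barcodes were read only with the number of their area.

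The classes were checked with genes other than the anchors. Without Mobp and Mog, 10 of 12 oligodendrocyte myelin genes were higher in central-rich spots and the others, Aspa and Plekhb1, did not pass the test. Without Prx and Egr2, 9 of 9 Schwann cell myelin genes were higher in peripheral-rich spots. Opalin, an oligodendrocyte membrane protein, stood in peripheral-rich spots at 2.44% to 7.65% of its central-rich level over the 4 areas. Dhh, a hedgehog ligand that Schwann cells secrete, stood in central-rich spots at 7.25% to 18.1% of its peripheral-rich level. Central-rich spots also held astrocyte RNA, with a summed level of 6 markers of 2698 to 8251 CPM against 211 to 653 CPM in peripheral-rich spots, and peripheral-rich spots held connective tissue RNA, with 2769 to 7447 CPM for 6 markers against 412 to 1720 CPM. Peripheral-rich spots of HC also held much sensory neuron RNA. There 7 markers summed to 5208 CPM, against 1297 to 1740 CPM in peripheral-rich spots of the TN areas. The part of these cells in the results on the 5 genes was not tested.

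Whether the shared genes are equally abundant in both kinds of myelin was asked first. Mag, Mbp and Cnp were higher in central-rich spots of 4 of 4 areas and passed the test, whereas Mal and Sox10 were lower there in 4 of 4 areas and did not pass. The test was edgeR's quasi-likelihood test on the UMI sums per class and area, with the capture area as a block and Benjamini-Hochberg adjustment over 9563 genes, and it called 23% of all genes tested (11.8% higher and 11.2% lower in central-rich spots). These 2202 calls became 1287 without TN2 and 1306 without TN3. Log2 differences below are central-rich minus peripheral-rich with the standard error (SE) and n = 4 areas per class.

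Mag was at 1359, 1677, 1625 and 1993 CPM in the central-rich spots of the TN areas (TN1 to TN3) and HC, in that order. In the peripheral-rich spots it was at 255, 355, 205 and 317 CPM. The classes did not overlap, and the lowest central-rich level was several times the highest peripheral-rich level. The log2 difference was 2.68 ± 0.20 (SE), with an adjusted p of 7.6e-05 by edgeR, the largest of the 5 genes.

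Mbp was the member with the most UMIs. It was at 28797, 38249, 51782 and 61844 CPM in central-rich spots. It was at 11612, 9408, 10840 and 11701 CPM in peripheral-rich spots. The peripheral-rich levels lay close together in all areas, while the central-rich levels spread widely, from TN1 as the lowest to HC as the highest. The log2 difference was 2.11 ± 0.30 (SE), adjusted p = 0.0016 by edgeR.

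Cnp was at 2381, 2862, 2965 and 2885 CPM in central-rich spots. It was at 1418, 1789, 1748 and 1138 CPM in peripheral-rich spots. The classes again did not overlap, at a smaller distance than for Mag. The log2 difference was 0.99 ± 0.20 (SE), adjusted p = 0.0090 by edgeR. This call held under 10 of 13 alternatives and was lost without TN2, without TN3 and with Opalin, Ermn, Drp2 and Ncmap as anchors. In these settings the edgeR adjusted p was 0.067, 0.064 and 0.068, at log2 differences of 1.01, 1.01 and 0.74.

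Mal had the opposite order. It was at 740, 723, 708 and 785 CPM in central-rich spots, nearly the same in each area. It was at 2237, 945, 1487 and 893 CPM in peripheral-rich spots, where TN1 was highest and HC lowest. The log2 difference was -0.70 ± 0.27 (SE), with a 95% interval of -1.33 to -0.08 and an adjusted p of 0.10 by edgeR. The adjusted p was 0.040 with DESeq2, 0.014 with no filter on low counts, 0.034 without HC and 0.047 with the upper 10% of spots. The call therefore depended on these settings, while the sign was the same under all 13 alternatives. The log2 difference ran from -0.92 to -0.41 over the alternatives.

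Sox10 was the most even of the 5. It was at 188, 228, 246 and 239 CPM in central-rich spots. It was at 279, 376, 323 and 246 CPM in peripheral-rich spots. In HC both levels were nearly equal, with the central-rich level at 97.1% of the peripheral-rich one, and in the TN areas it was at 60.7% to 76.2%. The log2 difference was -0.32 ± 0.17 (SE), adjusted p = 0.23 by edgeR, and its 95% interval, from -0.73 to 0.08, holds both no difference and a moderately higher peripheral-rich level.

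**Figure D1:**
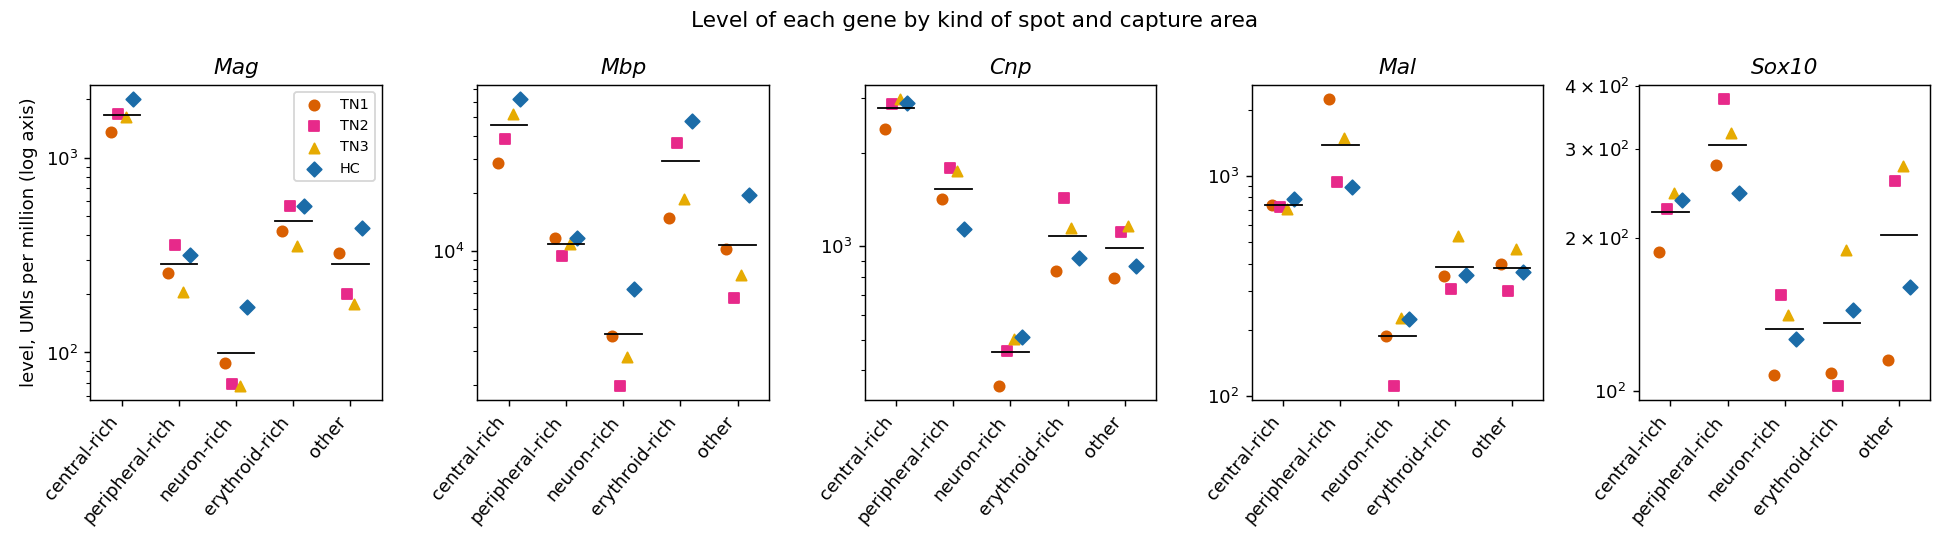
Level of each of the 5 genes in CPM (log axis) by kind of spot, with 1 point per capture area and a line at the mean of the 4 areas. Mag, Mbp and Cnp have all 4 central-rich points above all peripheral-rich points, Mal has them below, and the Sox10 points of both classes overlap.

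The level in the lower class was set beside that of all listed genes of 1 lineage other than the anchors. The Mag level of peripheral-rich spots was 12.6% to 21.2% of the central-rich one over the 4 areas, that of Mbp 18.9% to 40.3% and that of Cnp 39.5% to 62.5%. Among the oligodendrocyte genes the share was lowest for the lineage factors Nkx6-2 (1.72% to 5.26%) and Olig2 (2.17% to 4.98%). Olig1, a further lineage factor, was at 3.69% to 9.53%, and Myrf, another transcription factor, was near Mag at 9.44% to 11.7%. Hapln2 (2.57% to 14.0%) was below Mag in each area, and Tspan2 (6.45% to 23.2%) was above Mag in HC only. Bcas1 (28.9% to 60.8%), Aspa (54.0% to 127%) and Plekhb1 (65.9% to 143%) reached or passed the shares of Mag, Mbp or Cnp. In the other direction, the central-rich level was 33.1% to 87.9% of the peripheral-rich one for Mal and 60.7% to 97.1% for Sox10. Among the Schwann cell genes Fxyd3, at 26.9% to 59.3%, overlapped Mal, and the highest share of any other was 24.2%, for Pou3f1. A high share in the lower class was therefore not particular to the 5 genes.

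Single spots showed how Mag and Mal differ within the classes. In central-rich spots the median level of Mag was 1226, 1514, 1555 and 1779 CPM in TN1, TN2, TN3 and HC, and in peripheral-rich spots 219, 320, 186 and 292 CPM. The median of Mal in peripheral-rich spots was 2170, 916, 1430 and 870 CPM. In TN1 the 10th percentile of Mal in peripheral-rich spots, 1158 CPM, lay above the median of its central-rich spots, 700 CPM. The high Mal level of TN1 was therefore spread over its peripheral-rich spots rather than carried by a few of them.

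**Figure D2:**
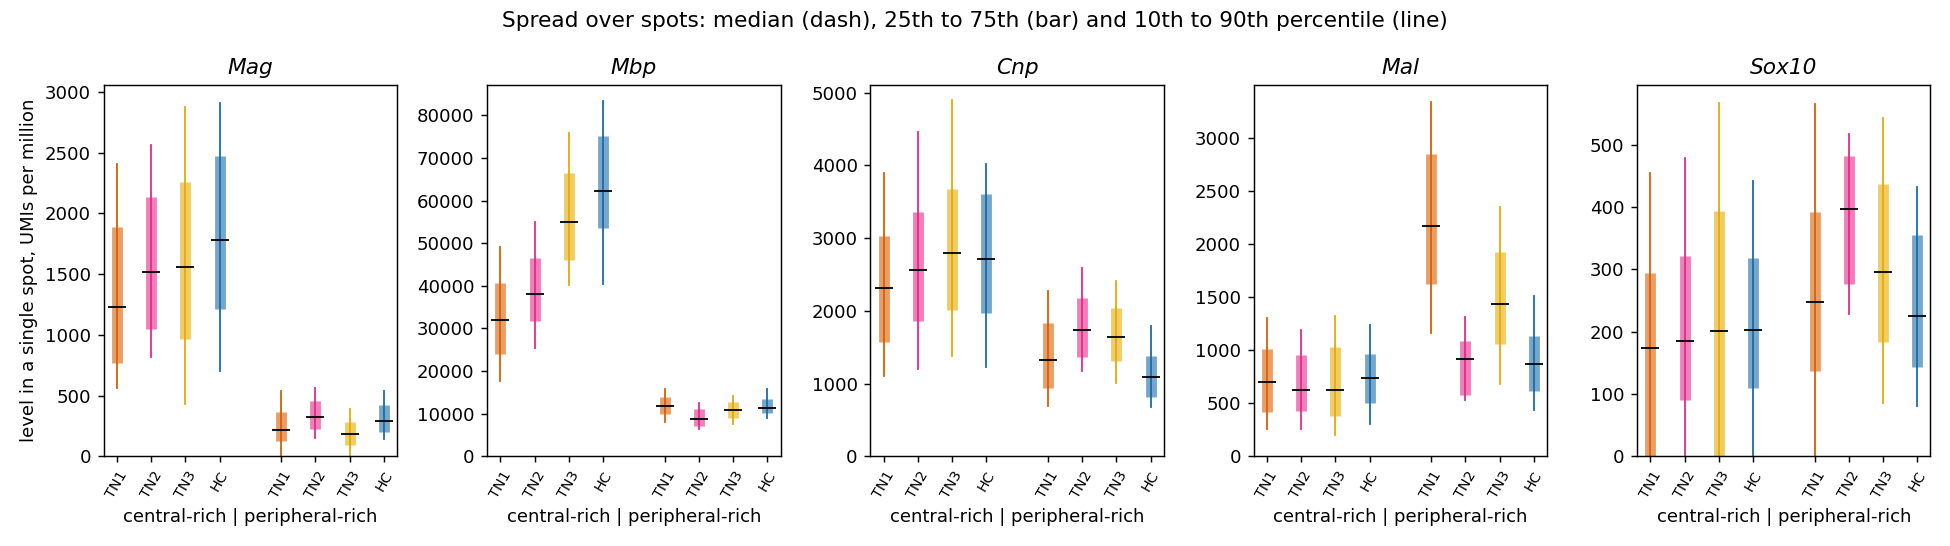
Level in single spots, in CPM, of each gene in central-rich (left 4) and peripheral-rich spots (right 4) of each area, with the median as a dash, the 25th to 75th percentile as a bar and the 10th to 90th as a line. The bars of Mag and Mbp are apart between classes in every area, those of Mal are apart in TN1 and TN3, and those of Sox10 overlap.

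To compare spots at 1 depth, each was thinned to 2000 UMIs. A Mag UMI was then found in 90.3%, 95%, 89.6% and 91.1% of central-rich spots and in 41.5%, 34.0%, 31.0% and 37.1% of peripheral-rich spots. In neuron-rich spots, the upper 15% for Avil plus Scn10a that were in neither myelin class, it was found in 23.8%, 8.7%, 10.7% and 29.2%. The exact binomial 95% intervals of central-rich and peripheral-rich shares did not meet in any area (84.7% as the lowest bound in central-rich spots, 48.3% as the highest in peripheral-rich spots); they cover counting error only. Before thinning, peripheral-rich spots gave 84.1%, 100%, 87.0% and 98.4%, at median depths of 8201, 29537, 12964 and 16334 UMIs against 5828, 8313, 4363 and 11181 in central-rich spots, so the unthinned shares of peripheral-rich spots were higher in the deeper areas. For Sox10 the thinned shares were 33.1%, 41.7%, 37.7% and 34.7% in central-rich and 46.0%, 58.5%, 42.8% and 47.3% in peripheral-rich spots, and for Mal 78.1%, 71.7%, 75.5% and 73.1% against 97.6%, 84.9%, 91.3% and 76.9%.

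A tissue without myelin was sought as a background in erythroid-rich spots and could not be had. This class was the upper 5% for Alas2 plus Ahsp, less the spots that were central-rich, peripheral-rich or neuron-rich, and held 164 spots. Mag there was at 419, 562, 352 and 565 CPM, above its peripheral-rich level in all 4 areas, and Mbp at 14879, 36450, 18714 and 47577 CPM. The summed level of 6 oligodendrocyte markers other than the anchors was 303 to 665 CPM in these spots, against 105 to 220 CPM in peripheral-rich spots. TN2 had only 2 such spots, and its levels there rest on them. The thinned share with a Mag UMI was 73.9% in TN1, 57.1% in TN3 and 68.3% in HC.

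Neuron-rich spots numbered 172, 46, 75 and 648 in TN1, TN2, TN3 and HC. Their 7 sensory neuron markers summed to 7735 to 9905 CPM, a sum that includes Avil and Scn10a, which chose the spots. All 5 genes were lower there than in peripheral-rich spots and passed the test, among 48.6% of 9931 genes called and 25.3% called lower. The log2 difference, neuron-rich minus peripheral-rich, ran from -3.02 ± 0.27 (SE) for Mal to -1.38 ± 0.13 for Sox10, with edgeR adjusted p-values of 0.00073 and 0.00077. Sox10, which satellite glia around the neurons also use, was at 107, 155, 141 and 127 CPM in neuron-rich spots, while Mal was at 188, 111, 227 and 223 CPM. The difference was -1.76 for Mag, -1.88 for Mbp and -1.90 for Cnp. By area, the log2 ratio of levels (CPM plus 1) was smallest in HC for all 5 genes. It was -0.88 in HC against -1.52 to -2.35 in TN for Mag, and -0.89 against -1.69 to -2.26 for Mbp. For Mal it was -1.99 against -2.71 to -3.57. In HC the sensory neuron markers summed to 7925 CPM in neuron-rich and 5208 CPM in peripheral-rich spots. All 5 calls held under the 12 alternatives, although the 4824 genes called became 3100 without TN1, 3073 without TN2 and 2589 without TN3. Spots rich in either myelin pair had been kept out of the neuron-rich class, which favours lower myelin genes there. Of the 18 other shared myelin genes 18 were also called lower, and of the 11 Schwann cell myelin genes, Prx and Egr2 included, 11. Prx and Egr2 chose the peripheral-rich spots, so their lower level in neuron-rich spots followed from that choice.

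The order of the levels was therefore not the same for the 5 genes. Mag ran from central-rich (mean 1664 ± 260 CPM, SD, n = 4 areas) through erythroid-rich (475 ± 106), the remaining spots (284 ± 120) and peripheral-rich (283 ± 66.3) to neuron-rich (99.1 ± 49.4), and over areas erythroid-rich overlapped the remaining spots, which overlapped peripheral-rich. Mbp began with central-rich (45168 ± 14580) and erythroid-rich (29405 ± 15331), which overlapped, before peripheral-rich (10890 ± 1061), the remaining spots (10756 ± 6224), which overlapped it, and neuron-rich (3669 ± 1888), which overlapped the remaining spots. Cnp put peripheral-rich (1523 ± 306) in second place behind central-rich (2773 ± 265), and its erythroid-rich level (1082 ± 267) overlapped both peripheral-rich and the remaining spots. Mal put peripheral-rich (1390 ± 625) first and central-rich (739 ± 33.3) second with no overlap. Sox10 ran from peripheral-rich (306 ± 56.6) over central-rich (225 ± 25.9) and the remaining spots (203 ± 78.0) to erythroid-rich (136 ± 40.3) and neuron-rich (133 ± 20.4), with each neighbour overlapping the next. These overlaps are of ranges over areas. Within areas, Mag was higher in erythroid-rich than in the remaining spots in 4 of 4, and in these than in peripheral-rich spots in 2. For Mbp, central-rich exceeded the next class in 4 areas, peripheral-rich in 3 and the remaining spots in 4. For Cnp, peripheral-rich did in 4 and erythroid-rich in 3. The steps of Sox10 held in 4, 2, 4 and 3 areas, in the order given.

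Levels were also followed along the share of anchor UMIs that came from Mobp and Mog, in 4468 spots with at least 10 anchor UMIs. Over the 5 bins, from the lowest share to the highest, Mag was at 221, 148, 202, 796 and 1917 CPM in HC and at 152, 73.7, 79.3, 532 and 941 CPM in TN1. It was lower in the second bin than in the first in all 4 areas and highest in the last. Mal also had a low middle, with both ends high: in HC it was at 454, 175, 171, 396 and 748 CPM, and in TN1 at 1081, 180, 166, 319 and 580 CPM. Sox10 had the same form in HC, with 178, 115, 107, 172 and 239 CPM. For Mal the last bin was above the first in HC and in TN2 (485 against 380 CPM). It was below the first in TN1 and in TN3 (704 against 770 CPM). In HC and TN2 the ends of Mal therefore had the opposite order to the central-rich and peripheral-rich spots, as did those of Sox10 in HC. The anchors themselves were far below their highest levels in the middle bin of HC. There Prx ran at 931, 301, 231, 328 and 105 CPM over the bins, and Mobp at 58.0, 82.5, 137, 593 and 905 CPM. The middle bins were therefore low in both kinds of myelin anchor, and the part of this in the low middle of the members was not tested. The middle bin held 15, 11 and 12 spots in TN1, TN2 and TN3 and 89 in HC, so its TN values rest on few spots. This series of levels is a description, since the bins were cut with the same spots.

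**Figure D3:**
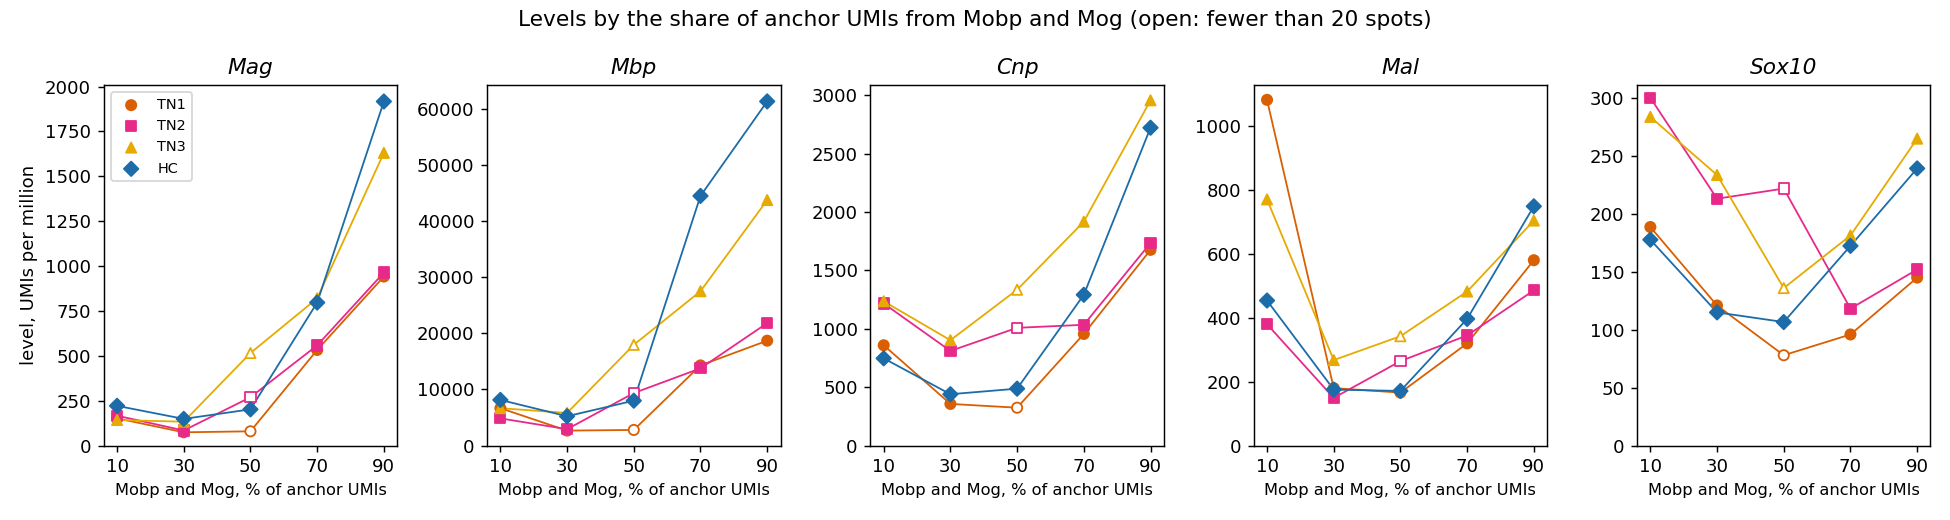
Level of each gene, in CPM, in 5 bins of the percent of anchor UMIs (Mobp, Mog, Prx and Egr2) that came from Mobp and Mog, with 1 line per area and open points where a bin held fewer than 20 spots. Mag is highest in the rightmost bin of each area, and Mal is higher in the outer bins than in the middle.

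The promoters of Cnp and Mal are printed because their log2 differences between the classes had opposite signs and because Sox10, measured beside them, binds a known short motif. The 250 bases before the start of each gene are given 5′ to 3′ on the gene's strand, from RefSeq (GRCr8), with matches to the SOX motif in capitals. The motif was A or T, A or T, CAA, A or T, G, searched on both strands.
Cnp, chr10:86011254-86011503, plus strand: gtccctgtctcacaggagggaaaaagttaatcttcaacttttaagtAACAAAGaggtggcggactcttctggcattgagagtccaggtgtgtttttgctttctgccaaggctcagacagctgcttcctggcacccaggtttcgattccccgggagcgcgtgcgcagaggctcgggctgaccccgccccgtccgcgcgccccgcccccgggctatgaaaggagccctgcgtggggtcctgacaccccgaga
Mal, chr3:135341424-135341673, minus strand: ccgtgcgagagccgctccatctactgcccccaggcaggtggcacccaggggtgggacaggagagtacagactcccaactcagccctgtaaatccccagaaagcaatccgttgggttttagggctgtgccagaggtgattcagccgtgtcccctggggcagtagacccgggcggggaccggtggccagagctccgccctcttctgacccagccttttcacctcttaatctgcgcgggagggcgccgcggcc
The Cnp window held 1 match, on its own strand and beginning 204 bases before the start, and the Mal window held 0. The Mag window, also searched, held 0. Windows of Mbp and Sox10 were not searched. Of 33469 promoters, searched over the same 250 bases before the start, 22.4% held at least 1 match, so that 1 of 3 is a description and no site.

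The 5 genes were set among other myelin genes of a fixed list. Of 18 further genes shared by both lineages, 7 were higher in central-rich spots, 4 were lower and 7 did not pass the test, with a median log2 difference of 0.81 against -0.03 for all genes tested. Sirt2, a deacetylase of central myelin, was the highest of the list at 1.57 ± 0.16 (SE), below Mag and Mbp. Gjb1, a gap junction protein, was at 1.42 ± 0.22, and Gpm6b, a proteolipid, at 1.38 ± 0.22. The galactolipid enzymes Ugt8 and Gal3st1 were at 1.29 ± 0.30 and 1.13 ± 0.19, S100b at 1.27 ± 0.26 and Cmtm5 at 1.07 ± 0.21.

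Erbb3, the neuregulin receptor of Schwann cells, was the lowest of the list at -2.0 ± 0.16 (SE), followed by the tetraspanin Cd9 at -1.84 ± 0.26, the small heat shock protein Cryab at -1.35 ± 0.30 and Ndrg1 at -0.89 ± 0.25. Among those that did not pass were Fa2h (0.75 ± 0.24, edgeR adjusted p = 0.058), Pllp (-0.40 ± 0.24) and Cers2, the ceramide synthase of long-chain myelin lipids, at -0.03 ± 0.22 with a 95% interval of -0.54 to 0.48. Without TN2 the calls of Ugt8, S100b, Cmtm5 and Ndrg1 were lost (adjusted p of 0.12, 0.097, 0.058 and 0.070), and without TN3 those of Ugt8, S100b, Cmtm5, Ndrg1 and Cryab (0.087, 0.056, 0.055, 0.16 and 0.058). With Opalin, Ermn, Drp2 and Ncmap as anchors, Ugt8 (0.14), Gal3st1 (0.092), S100b (0.062) and Cmtm5 (0.12) did not pass, nor did Ndrg1 with the upper 10% of each area (0.052). Fa2h passed under 5 of 13 alternatives, among them without TN1, at 1.04 and an edgeR adjusted p of 0.0033.

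**Figure D4:**
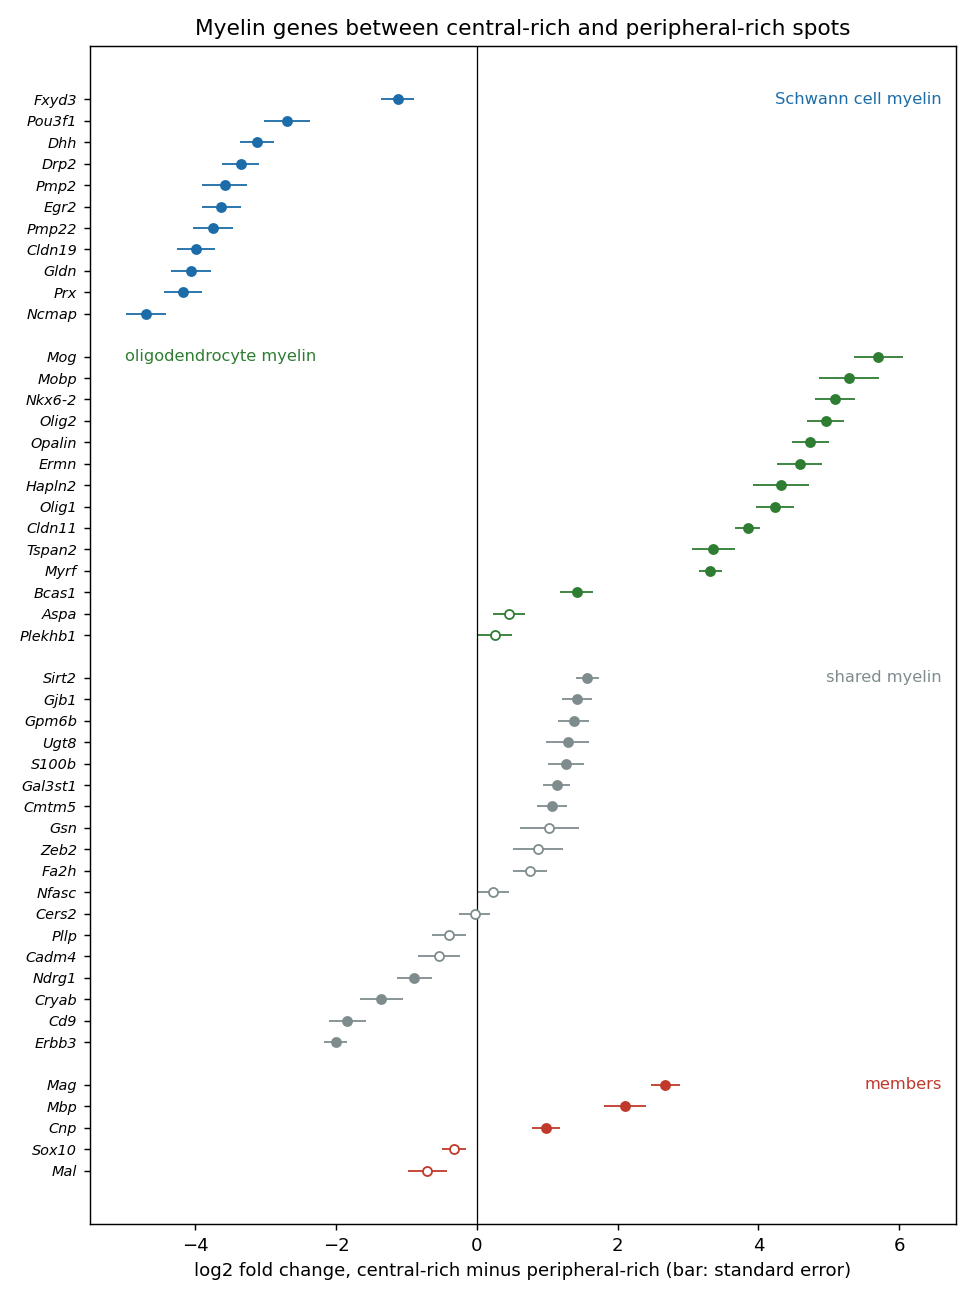
Log2 fold change between central-rich and peripheral-rich spots for the 5 genes (members) and for 3 lists of myelin genes, with bars of 1 SE, filled points at an edgeR adjusted p under 0.05 and open points otherwise. The shared genes run from Sirt2 at 1.57 to Erbb3 at -2.0 and overlap both other lists. Without the anchors Mobp, Mog, Prx and Egr2, which chose the spots, the oligodendrocyte list runs from 0.26 to 5.09. The Schwann cell list then runs from -4.70 to -1.12.

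Relatives of Sox10 and Mal were listed as well. Sox8, a transcription factor of the same Sox group as Sox10, was at 63.2, 67.5, 71.8 and 66.8 CPM in central-rich and at 11.6, 15.5, 11.5 and 8.56 CPM in peripheral-rich spots. These levels did not overlap, and the log2 difference was 2.65 ± 0.20 (SE), adjusted p = 7.1e-05 by edgeR, where Sox10 did not pass. The difference between both genes was not itself tested. Of the 7 further Sox genes listed, 3 passed the filter on low counts, and Sox2 and Sox9 were not called (0.80 and 1.16, adjusted p of 0.12 and 0.11). Leaving out 1 area changed both: Sox9 passed without TN1 (1.84, adjusted p = 0.0073) and Sox2 without TN3 (1.16, adjusted p = 0.046).

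Of 5 proteins with the same membrane domain as Mal (the MARVEL domain), 4 were tested: Cmtm5 was higher in central-rich spots, Plp2 was lower (-1.25 ± 0.21, SE), and Pllp and Myadm were not called. Pllp had the sign of Mal. Of 5 genes for receptors and ligand synthesis of Mag, Ngfr, the low-affinity neurotrophin receptor, was lower (-1.40 ± 0.29), with an adjusted p of 0.056 without TN2. Rtn4r, the Nogo receptor, was at -1.11 ± 0.37 with an adjusted p of 0.066, which became 0.017 without TN1.

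The genes whose levels were most like each of the 5 were found by Pearson's r of log2(CPM + 5) over 19 sums of spots by class and area, among 5887 genes. These sums share areas and the anchor genes, so r is a description. Among the genes most like Mag were Sox8 (r = 0.97), Nkd1, Sirt2 and Tf. Mbp was most like Bcas1 (0.96), Mag, Sirt2, Tf and S100b. Cnp was most like Cmtm5 (0.96), Gltp, Pon2, Ldlrad3 and Rhoa. Mal was most like Pllp (0.99), Pla2g16, Papss1, Cers2 and Tmem189, and Sox10 most like Aatk (0.97), Rnpepl1, Slc25a10, Ybx1-ps3 and Metrn. Among the 5 themselves, r was 0.95 for Mag and Mbp, 0.72 for Mal and Sox10 and 0.26 for Mag and Sox10.

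The study compared TN with HC and described Mag, with Myrf and Mog, as markedly reduced in the myelin sheath in TN. Its contrast was between spot clusters and used a spot-level test, unlike the classes and the sums per area used here. In central-rich spots Mag was at 1359, 1677 and 1625 CPM in TN and 1993 CPM in HC, and Mbp at 28797, 38249 and 51782 CPM in TN and 61844 CPM in HC, so that every TN area was below HC for both. The log2 difference, TN minus HC over 3 TN areas and 1 HC area, was -0.40 ± 0.30 (SE) for Mag and -0.67 ± 0.49 for Mbp, with 95% intervals of -1.10 to 0.31 and -1.84 to 0.49. Cnp (-0.11 ± 0.32), Mal (-0.16 ± 0.27) and Sox10 (-0.15 ± 0.28) were nearer to 0. None of the 5 passed the test, and the share called by edgeR was 0% of 9346, against 1 gene by DESeq2 and 178 genes with an unadjusted p under 0.05. When TN1 was left out, 373 genes passed, and of the 5 none. Without Mobp and Mog, which chose these spots, the other 6 oligodendrocyte markers summed to 1363, 1395 and 1181 CPM in TN and 1091 CPM in HC, and their part in the result was not tested.

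Set against the anchor genes in place of all UMIs, Mag stood in central-rich spots at 76.3, 83.9 and 83.1 UMIs per 100 UMIs of Mobp and Mog in TN and at 112 in HC. Mbp stood at 1616, 1915 and 2647 in TN and 3464 in HC. Cnp stood at 134, 143 and 152 in TN and 162 in HC. All 5 were below HC in every TN area, also Mal (41.5, 36.2 and 36.2 against 44.0) and Sox10 (10.5, 11.4 and 12.6 against 13.4). The divisor holds the genes that chose these spots, and the pattern depends on it: by CPM, TN3 stood above HC for Cnp (2965 against 2885) and Sox10 (246 against 239). These ratios were not tested.

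In peripheral-rich spots 3 of the 5 stood above HC in every TN area. Cnp was at 1418, 1789 and 1748 CPM in TN and 1138 CPM in HC. Mal was at 2237, 945 and 1487 CPM in TN and 893 CPM in HC, with TN2 close to HC. Sox10 was at 279, 376 and 323 CPM in TN and 246 CPM in HC. The log2 differences were 0.51 ± 0.23 (SE) for Cnp, 0.80 ± 0.53 for Mal and 0.37 ± 0.23 for Sox10, with edgeR adjusted p-values of 0.21, 0.37 and 0.33. Mag (-0.26 ± 0.30) and Mbp (-0.16 ± 0.26) did not pass either, at 0.60 and 0.72.

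This comparison called 8.65% of 10769 genes, 1.66% higher and 6.98% lower in TN, and 0 of the 5 was among them. The 931 calls became 2760 without TN1, 496 without TN2 and 275 without TN3. Without TN1, Cnp passed at 0.61 with an adjusted p of 0.035. Of the 18 other shared myelin genes 0 passed, with a median log2 difference of 0.50 against 0.06 for all genes tested. Gldn, a Schwann cell protein of the node of Ranvier, was higher in TN at 1.42 ± 0.29 (SE), with an adjusted p of 0.038 by edgeR. Lower in TN were Hapln2 (-2.11 ± 0.35) of the oligodendrocyte list, Myadm (-1.40 ± 0.27) and B4galnt1 (-1.44 ± 0.29), an enzyme on the path to the gangliosides that Mag binds. These calls did not hold under every alternative. Without TN3 the adjusted p was 0.073 for Gldn, 0.052 for Hapln2, 0.15 for Myadm and 0.16 for B4galnt1, and without TN2 it was 0.077 for Gldn, 0.061 for Myadm and 0.080 for B4galnt1.

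Other cells differed between the TN and HC spots of this class. Sensory neuron markers summed to 1417, 1740 and 1297 CPM in TN and 5208 CPM in HC, and 7 of 7 were lower in TN by the test. Macrophage markers summed to 920, 2163 and 1461 CPM in TN and 268 CPM in HC, with 6 of 6 above HC in all TN areas and 4 passing, and connective tissue markers to 7447, 6801 and 5933 CPM against 2769 CPM, with 3 of 6 passing. No defining marker of these 3 lists was at 0. Their part in the values of the 5 genes was not tested. Per 100 UMIs of Prx and Egr2, Cnp stood at 58.4, 97.6 and 89.3 in TN and 56.7 in HC and Mal at 92.1, 51.5 and 76.0 against 44.5. Sox10 stood at 11.5, 20.5 and 16.5 in TN and 12.2 in HC, so that by this ratio TN1 was below HC. Prx and Egr2 also chose the spots, and the ratios were not tested. The anchor Egr2 itself differed between the areas, at 194, 125 and 161 CPM in the TN peripheral-rich spots and 50.4 CPM in those of HC.

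**Figure D5:**
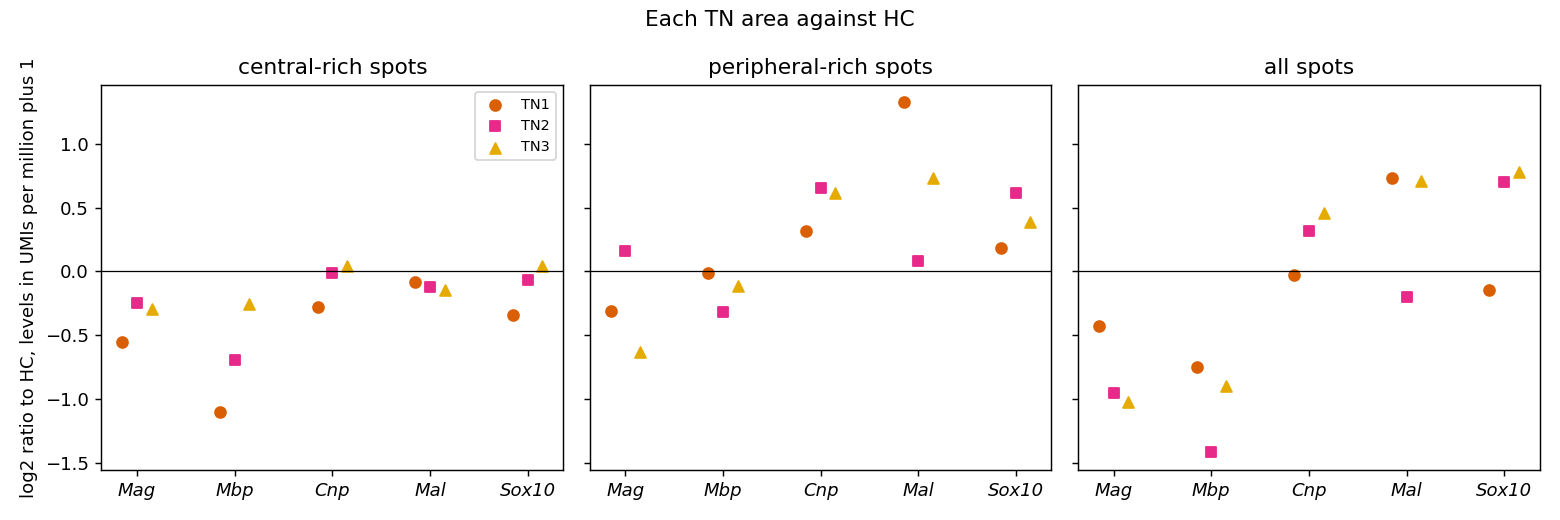
Log2 ratio of each TN area to HC, from levels in CPM plus 1, for the 5 genes in central-rich, peripheral-rich and all spots. Mag and Mbp lie below 0 in central-rich and in all spots of each TN area, and Cnp, Mal and Sox10 lie above 0 in peripheral-rich spots.

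Whether TN differed from HC by another amount in the 2 classes was asked of an interaction term, in a fit blocked on area. The difference of the log2 differences, central-rich minus peripheral-rich, was -0.85 ± 0.50 (SE) for Mal, -0.63 ± 0.35 for Cnp, -0.56 ± 0.50 for Mbp, -0.54 ± 0.34 for Sox10 and -0.13 ± 0.42 for Mag. None passed, with edgeR adjusted p-values from 0.47 to 0.93, and the share of genes called was 0% of 11114, while 1431 had an unadjusted p under 0.05 and DESeq2 called 2. Leaving out TN1 or TN3 gave 222 and 427 calls, none of them among the 5. The value of Mag was 0.006 without TN1 and so had no stable sign.

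Over all spots Mag was at 341, 237 and 225 CPM in TN and 458 CPM in HC, and Mbp at 10309, 6476 and 9280 CPM in TN and 17271 CPM in HC. Both were below HC in every TN area, with log2 differences of -0.86 ± 0.31 (SE) and -1.07 ± 0.40 and an edgeR adjusted p of 0.56 for each. Without TN1 Mag passed at -1.07 with an adjusted p of 0.023. Central-rich spots made up 17.6%, 9.63% and 11.7% of the spots in TN and 18.5% in HC, so the areas also differed in how much central myelin they held, and the part of that in the sums over all spots was not tested. Cnp (0.19 ± 0.31), Mal (0.40 ± 0.46) and Sox10 (0.42 ± 0.43) did not pass. The share called in this fit was 0% of 14902, against 158 genes by DESeq2 and 1271 with an unadjusted p under 0.05. It was 2171 genes when TN1 was left out.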

How the data were processed

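The authors deposited UMI counts per gene and spot over tissue for all 4 capture areas in 1 matrix, made with Space Ranger 1.2.0 per the file headers and without normalization; the labels also name STAR, and the genome build and annotation were not given in the sources used here. Areas were read from the number after each barcode (1 to 3 for TN1 to TN3, 4 for HC), following the order of capture areas in the series description. Methods and series description differ on HC (sham-operated animals or the healthy side of TN animals), so HC was used as labelled. The totals were 2.35e+07 to 4.13e+07 UMIs per area. The 86 spots under 1000 UMIs were not classed, and a class pair needed at least 3 UMIs in a spot.

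Sums per class and area were tested with edgeR 4.0.16 (R 4.3.3, TMM, filterByExpr, quasi-likelihood test, Benjamini-Hochberg, adjusted p under 0.05) over all genes; spots were not replicates. Nothing says how far TN areas differ beyond being separate animals, and the TN against HC fit assumes that HC varies like them. The study's spot-level test (MAST) was not used. Alternatives were DESeq2 1.42.0 and its size factors, no count filter, abundant genes left out, each area left out, other thresholds and anchors, and no area block. Thinning, counting intervals and ratios used Python 3.11.15 and scipy 1.17.1. The edgeR steps were tested on simulated data with genes changed by a known amount. At a log2 change of 1, 72.1% of changed genes were called between central-rich and peripheral-rich spots. For TN against HC it was 16.2% in central-rich and 13.2% in peripheral-rich spots. It was 5.88% for the difference between the classes and 5.88% over all spots. The TN against HC tests therefore mostly missed changes of this size.

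The 5 genes and all lists were chosen with earlier results of these data known. Named genes were the 5, the anchors, genes of the lists for myelin, Sox factors, MARVEL proteins, Mag receptors and cell types, and the 5 genes most like each member; list genes were described by example. Some listed genes are not reported here and were left out of the list counts. Of the listed genes only Sox4 was not found by symbol. Spots can hold several cell types, images were not used, and no doublet caller was run.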

Additional observations from a re-analysis of the deposited data

How the results depend on the processing

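The higher central-rich levels of Mag and Mbp kept their sign and their call under all 13 alternatives, and Cnp, Mal and Sox10 kept their sign. Counts of calls moved more. Leaving out 1 area gave 653 to 1260 genes higher and 620 to 1254 lower in central-rich against peripheral-rich spots, lowest without TN2 and TN3. For TN against HC, leaving out 1 TN area gave 0 to 209 higher and 0 to 164 lower in central-rich spots, 43 to 1223 and 232 to 1537 in peripheral-rich spots, 1 to 350 and 1 to 77 for the difference between the classes, and 0 to 1186 and 0 to 985 over all spots. For neuron-rich against peripheral-rich spots it gave 1175 to 2949 higher and 1414 to 2928 lower, and without the area block 1394 were higher. With DESeq2, 1 gene was higher in TN central-rich and 313 in TN peripheral-rich spots, 2 were lower for the difference between classes, and over all spots 127 were higher and 31 lower. With no filter on low counts, 1 gene was lower in TN central-rich spots, 420 were higher in TN peripheral-rich spots, and 381 were higher and 99 lower for the difference. With other anchors 115 were higher in TN peripheral-rich spots. For the interaction, Mag ranged from -0.39 to 0.00604 when 1 TN area was left out. Cers2 between the classes ranged from -0.23 to 0.21 when 1 area was left out, and was 0.10 with the upper 10% of each area. With no filter the median log2 difference of all genes between TN and HC peripheral-rich spots was 0.20 in place of 0.06. The causes were not tested.

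With 3 TN areas and 1 HC area, 2 residual degrees of freedom remained, and leaving out a TN area leaves 1. No paired analysis was possible because HC is 1 area of 2 animals and carries no replicate number. Depth limits Sox10, found in 62.2% to 85.8% of central-rich spots.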
